A study of Arabidopsis thaliana with 24 samples.

Results

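The step from 0 h to 6 h of imbibition was followed in whole seeds of the Arabidopsis thaliana line ref6c. The deposited table gives TPM, the share of a library's reads that falls to each gene after division by its length. A gene was a member where its TPM was 1 or more in at least 3 of the 6 libraries, 3 of seeds at 6 h and 3 of seeds at 0 h, and 15275 of the 23826 genes in the table were members (64.1%). Of these, 11088 were at 1 TPM or more in all 6 libraries. A further 2794 passed only through their 6 h libraries and 124 only through their 0 h libraries, so that these genes had to differ between the times. The member nearest the limit, CRR42, had a third-highest value of 1.00 TPM, and the nearest gene outside it, PYL3, had 0.999 TPM.

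The groups used were ref6c seeds at 6 h and at 0 h and, beside them, Col seeds at 6 h and at 0 h, with 3 libraries in each. The labels give the genotype of the first pair as ref6c in the Col ecotype and that of the second as wild type, and do not say what lesion ref6c carries. Libraries of 24 h and 48 h complete the series of 24 and entered the fit only through the common estimate of the spread. The seeds of every group were after-ripened, that is, stored dry at room temperature for months so that dormancy was lost, then sown on Murashige and Skoog medium and kept in long days. The growth text is the same for all samples, and it names seeds of ref6-1;REF6-HA, a REF6 line with a tagged copy; the groups here follow the genotype field. Nothing in the labels says that the 3 libraries of a group came from separate seed lots, so p-values measure the spread between these libraries, which may be technical.

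REF6 is a histone demethylase of the JUMONJI family. It removes methyl groups from lysine 27 of histone H3, the mark that Polycomb repressive complex 2 writes on silent genes, and it finds its targets partly through zinc fingers that read a short DNA motif; ELF6 is its nearest relative. A dry seed holds stored messenger RNA from late maturation, a programme driven by the hormone abscisic acid (ABA) and by transcription factors such as ABI3. On imbibition the seed takes up water, resumes transcription and translation within hours, and replaces the maturation messages with those for protein synthesis, reserve use and growth. Gibberellins (GA) promote this change and ABA opposes it.

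Depth, recovered from the TPM values as whole reads, lay between 16621290 and 19247836 reads per library over the 24. Replicates of 6 h correlated at r of 0.996 to 0.997 on the log2 scale over the members, and those of 0 h at 0.987 to 0.996, with 0 h library 1 standing apart from the other two. All 11 embryo markers, storage proteins and oleosins, were at 1 TPM or more at both times, and their summed TPM ran from 57573 to 61494 at 6 h and from 161147 to 168164 at 0 h. The 6 silique and flower markers and 5 of 6 seed coat markers were under 1 TPM in all 6 libraries. The 3 endosperm markers summed to 3712 to 4748 TPM at 6 h and to 1513 to 3181 TPM at 0 h. Nearly all of that sum was 1 gene, EPR1. The other endosperm markers, MAN7 and EXPA2, had means of 32.0 and 3.41 TPM at 6 h, against 1.59 and 0.343 TPM at 0 h. The 4 leaf markers summed to 1048 to 1154 TPM at 6 h and to 29.8 to 36.7 TPM at 0 h, with LHCB1.1 and CA1 under 1 TPM in all 6 libraries. The part of the endosperm and leaf markers in the results was not tested. The 4 pollen markers summed to 13.84 to 17.63 TPM at 6 h and to 12.998 to 16.07 TPM at 0 h. In whole seeds, fewer cells of a type and less RNA per cell cannot be told apart.

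REF6 itself was read first. In ref6c seeds it was at 14.4, 13.5 and 15.3 TPM at 6 h, against 0.563, 0.221 and 0.267 TPM at 0 h, and every 6 h library was above every 0 h library. The step was 3.52 ± 0.12 on the log2(TPM + 1) scale (SE, n = 3 each; limma, adjusted p = 1.62e-18), and 2.51 after the scaling described next. In Col seeds REF6 was at 35.1, 32.5 and 39.8 TPM at 6 h, against 1.09, 1.46 and 0.935 TPM at 0 h. At each time the 3 ref6c libraries were below the 3 Col libraries, and the difference of the steps, ref6c minus Col, was -0.58 ± 0.17 (limma, adjusted p = 0.0404). That call did not hold after scaling, at -0.21 (limma, adjusted p = 0.502), and its sign turned to 0.23 with a pseudocount of 0.1, so the levels differ by genotype more clearly than the steps do. REF6 reads were thus fewer in ref6c seeds but present, and since the place of the lesion is not given, a sum over the gene span does not show whether the protein is made. ELF6 was at 12.02, 12.4 and 13.9 TPM at 6 h, against 7.51, 3.74 and 3.98 TPM at 0 h. Its step of 1.23 ± 0.17 in TPM became -0.59 after scaling, and it differed from the Col step by 0.21 ± 0.24 (limma, adjusted p = 0.662).

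At 6 h the transcript pool was spread over many genes, whereas at 0 h few genes held most of it. At 6 h the 10 most abundant genes took 12.59 ± 0.186% of all TPM, against 33.62 ± 1.32% at 0 h (SD, n = 3 each). The 100 most abundant took 28.68 ± 0.385% at 6 h and 70.37 ± 1.69% at 0 h. The number of genes at 1 TPM or more was 15353.3 ± 3.21 at 6 h and 11938.7 ± 394 at 0 h. Because TPM are shares, the retreat of a few very abundant messages lifts the share of the rest.

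The log2 step had a median of 1.61 over the members, and limma called 12986 members higher at 6 h (85.0%) and 1452 lower (9.51%) at an adjusted p under 0.05. Median-of-ratios scaling, which sets the typical gene to no change, lowered the 6 h values 4.11-fold relative to the 0 h values and left a median of 0.04. After it 6817 members were higher (44.6%) and 6541 lower (42.8%). The 1452 lower genes were lower under both, and 6817 genes were higher under both, while 4256 genes were higher in TPM and lower after scaling. Which of these scales is nearer to the number of molecules per seed cannot be told from these files. Both are given below, as the step and the scaled step; a gene or list with a step near 1.61 moved with the typical gene. A list of which about 85.0% rose in TPM, or about 44.6% were higher and 42.8% lower after scaling, stood where all members stood. With a 2-fold minimum 10666 members were higher (69.8%) and 709 lower (4.64%). The 3 libraries of 6 h lay wholly above those of 0 h for 12887 members (84.4%) and wholly below for 1458 (9.55%).

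**Figure D1:**
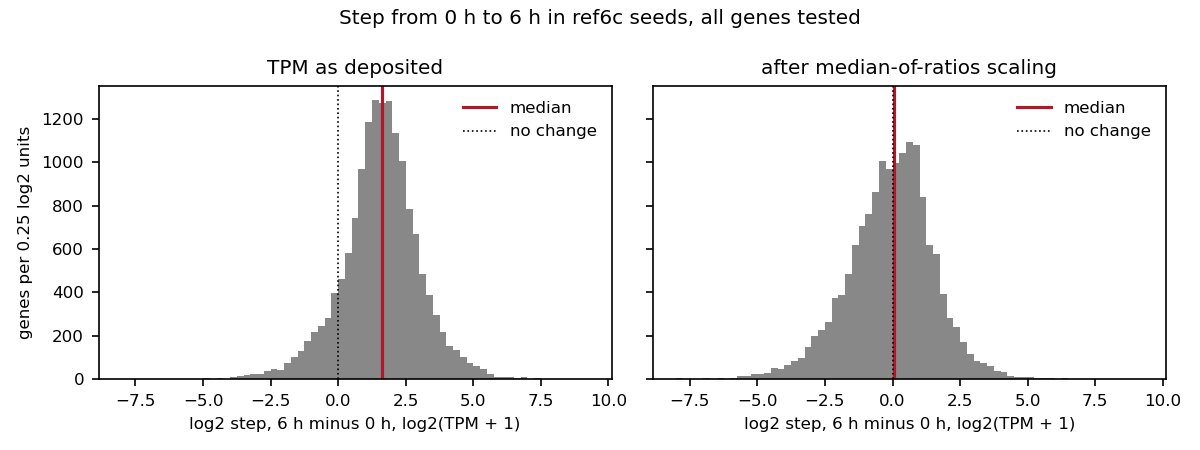
Histograms of the log2 step, 6 h minus 0 h, of the 15275 members in ref6c seeds, from TPM as deposited (left) and after median-of-ratios scaling (right); the y axis counts genes per 0.25 log2 units, the solid line marks the median and the dotted line no change. The median lies at 1.61 in TPM and at 0.04 after scaling, with tails on both sides.

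Messages of seed maturation lost much of their share of the pool. Storage proteins took 4.69 ± 0.167% of TPM at 6 h and 12.64 ± 0.343% at 0 h (SD, n = 3 each), oil body proteins 1.59% and 4.73%, and late embryogenesis abundant (LEA) proteins, which protect cells that dry out, 3.66 ± 0.176% and 17.28 ± 1.15%. Of 48 LEA and dehydrin genes listed, 33 were tested; 24 fell and 7 rose, with a median step of -1.32, and after scaling 31 were lower and 1 higher, with a median of -3.37. Steps within the list ran from -4.97 to 3.15, so the list was far from uniform.

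GEA6, the group 1 LEA protein also called EM6, was at 1578, 1378 and 1482 TPM at 6 h, against 26842, 37488 and 31850.4 TPM at 0 h. That is a fall of 21.7-fold, with a step of -4.43 ± 0.22 (limma, adjusted p = 1.26e-15). LTI30, a dehydrin of the cold and drought response, was at 59.0, 58.0 and 55.8 TPM at 6 h, against 1613, 2027 and 1883 TPM at 0 h, with a step of -4.97 ± 0.18. The libraries of 6 h lay far below those of 0 h in both genes. EM1, the other gene of the GEA6 type, fell much less, to a mean of 1423 TPM at 6 h against 2737 TPM at 0 h (step -0.94). ERD14, an acidic dehydrin, went the other way and rose to a mean of 30.8 TPM at 6 h against 2.72 TPM at 0 h, with a step of 3.15 and a scaled step of 1.42. It was the one LEA gene called higher under both scales.

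Storage messages were very unequal in how far they fell. Of the 8 tested, 4 fell in TPM, CRA1 and CRU3 rose and 2 passed in neither direction, whereas all 8 were lower after scaling; the median step was -0.64 and the scaled one -2.69. SESA5, a 2S albumin with the highest TPM of all genes at 0 h, was at 11964, 10919 and 11300.4 TPM at 6 h, against 74109, 75002 and 76126 TPM at 0 h, a fall of 6.59-fold. CRA1, a 12S cruciferin, was at 12684, 10994 and 12369 TPM at 6 h, against 9112, 6308 and 7216 TPM at 0 h, with a step of 0.69 ± 0.22 that turned to -1.36 after scaling. The oil body list showed the same spread: of 15 listed, 12 were tested, 9 fell and 3 rose, and after scaling 11 were lower. OLEO4, an oleosin that coats oil bodies, was at 577, 528 and 569 TPM at 6 h, against 5148, 5987 and 6219.9 TPM at 0 h, a step of -3.37 ± 0.23, while OLEO1 had a mean of 9853 TPM at 6 h against 21342 TPM at 0 h and a step of -1.11. OLEO4 thus lost a far larger share of its level than OLEO1. At 6 h the highest TPM belonged to LCR67, a small cysteine-rich protein of the defensin type, at 29458, 29478 and 26032 TPM at 6 h, against 46172, 58668 and 47899 TPM at 0 h. AT1G68250, whose product is not characterised, came next at 25449.7, 26260 and 26544 TPM at 6 h, against 40262, 37277 and 37127 TPM at 0 h.

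Among genes with a symbol the largest fall was that of NRT1.8, a nitrate transporter, at 7.04, 6.14 and 6.51 TPM at 6 h, against 558, 371 and 444 TPM at 0 h. Its step was -5.90 ± 0.15 (limma, adjusted p = 2.95e-21). The rule by which the largest falls were named took only genes without overlap between the times. Only AT2G25625 and AT5G39520, loci without a symbol, had steps further down, at -6.09 and -6.08. GolS2, a galactinol synthase that starts the raffinose sugars stored in dry seeds, was at 23.2, 20.4 and 22.3 TPM at 6 h, against 1078, 1013 and 955 TPM at 0 h, with a step of -5.47 ± 0.20. MIPS2, which makes the myo-inositol that galactinol is built from, was at 14.7, 13.9 and 14.6 TPM at 6 h, against 551, 419.8 and 459 TPM at 0 h, with a step of -4.95 ± 0.13. IAA30, a member of the Aux/IAA family of auxin response proteins, was at 0.793, 0.578 and 0.6 TPM at 6 h, against 36.2, 42.9 and 39.8 TPM at 0 h. Other genes among the 15 largest falls were AIG2L, the cell wall enzyme XTH25, SIS, DIP2 and the F-box protein FBS1. So were the amino-acid-binding repeat protein ACR6 and the sugar transporter family member SWEET6. The steps of these genes lay between -3.92 and -5.53. The annotation gives SIS and DIP2 ubiquitin ligase product names, a function not examined here.

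**Figure D2:**
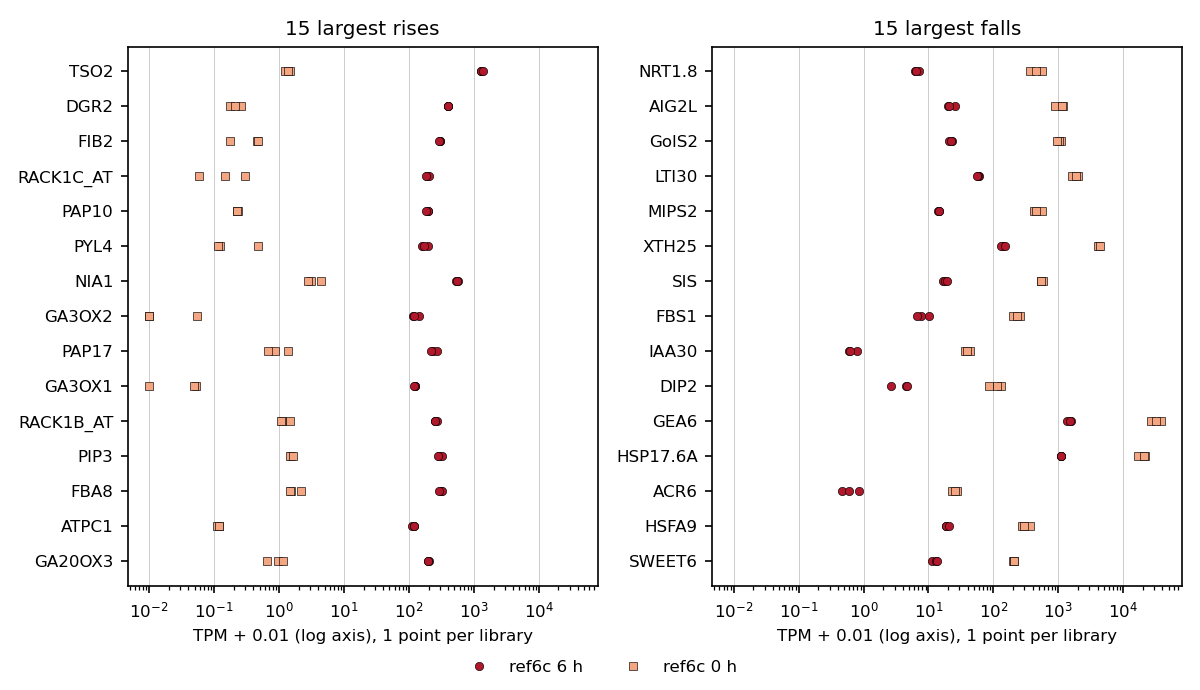
TPM + 0.01 on a log axis in each library of the 15 genes with the largest rises (left) and the 15 with the largest falls (right) chosen by the naming rule, with ref6c 6 h as red circles and ref6c 0 h as orange squares. The rule took only genes without overlap between the times, so the separation of the libraries is part of the choice. TSO2, for example, was at 1279, 1293 and 1371 TPM at 6 h against 1.24, 1.46 and 1.38 TPM at 0 h.

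Genes of heat protection moved in both directions. HSFA9, the heat shock factor specific to seeds, was at 18.8, 18.3 and 20.3 TPM at 6 h, against 367, 276 and 293 TPM at 0 h, a step of -3.95 ± 0.24; the other 11 heat shock factors tested had steps from -0.57 to 2.82, and the list counted 9 higher and 1 lower, or 3 higher and 9 lower after scaling. HSP17.6A, a small heat shock protein, was at 1101, 1107 and 1089 TPM at 6 h, against 16561, 21626 and 20646 TPM at 0 h, a fall of 17.9-fold. Of 37 small heat shock proteins listed, 29 were tested, 13 rose and 12 fell in TPM, and 8 were higher and 20 lower after scaling; their share of TPM was 0.406% at 6 h and 2.88% at 0 h. The list takes in every gene whose product is named HSP20-like, and SLT1, named for tolerance of sodium and lithium, was among those that rose, with a step of 3.52 and a scaled step of 1.58. Among the large chaperones, 13 of 18 rose and 4 fell, a smaller share of rises than the 85.0% of all members, and 11 were higher and 7 lower after scaling. BIP1 and BIP2, the HSP70s of the endoplasmic reticulum, had steps of 5.10 and 5.71, against -2.41 for HSP101 and -2.67 for Hsp70b.

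The letters of the ABA-responsive element, the site of factors such as ABI5, were counted in the promoters. ACGTGNC, read on both strands within 250 bases before the annotated gene start, was in 60.6% of 33 LEA promoters and in 24.7% of 705 promoters of genes called with a step of -1 or less. It was in 8.71% of 10586 promoters with a step of 1 or more and in 10.3% of all 15131 member promoters read. For genes called with a scaled step of -1 or less it was in 15.1% of 3832 promoters, and for a scaled step of 1 or more in 7.95% of 3560. The G-box CACGTG, which overlaps that element, was in 45.5% of LEA promoters, 19.6% of those with a step of -1 or less and 8.07% of all. The RY letters CATGCATG, bound by B3 factors such as ABI3, were in 2.27% of those with a step of -1 or less and 0.562% of all. With a scaled step of -1 or less the shares were 12.2% for the G-box and 1.07% for the RY letters. The following promoters, each the 200 bases before the gene start on the strand of the gene in the TAIR10.1 reference, were chosen after their values were seen to show the letters in strong falls and in 1 rise; capitals mark each match of ACGTGNC on either strand, and overlapping matches run together.
GEA6 (chr2:16780369-16780568, minus strand): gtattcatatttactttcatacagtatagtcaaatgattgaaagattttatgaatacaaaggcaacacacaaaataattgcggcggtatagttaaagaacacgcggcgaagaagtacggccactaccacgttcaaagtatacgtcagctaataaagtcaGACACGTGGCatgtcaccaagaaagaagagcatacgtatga
AT1G04560 (chr1:1244747-1244946, plus strand): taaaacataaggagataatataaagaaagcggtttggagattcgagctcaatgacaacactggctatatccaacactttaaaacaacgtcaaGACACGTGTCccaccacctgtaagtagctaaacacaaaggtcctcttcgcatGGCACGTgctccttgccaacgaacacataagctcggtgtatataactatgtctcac
ACR6 (chr3:329899-330098, plus strand): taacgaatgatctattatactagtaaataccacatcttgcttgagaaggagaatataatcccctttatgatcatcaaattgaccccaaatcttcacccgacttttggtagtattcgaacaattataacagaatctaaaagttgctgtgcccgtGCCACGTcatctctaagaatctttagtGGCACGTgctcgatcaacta
SIP2 (chr3:21293172-21293371, minus strand): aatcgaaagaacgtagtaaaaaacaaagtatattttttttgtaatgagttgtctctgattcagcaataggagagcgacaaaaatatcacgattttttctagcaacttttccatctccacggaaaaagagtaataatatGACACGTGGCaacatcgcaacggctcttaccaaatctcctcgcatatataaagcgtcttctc

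GEA6 carries 2 matches in 1 run of 10 bases. AT1G04560, an AWPM-19-like membrane protein, carries 3 and was at 3821, 3536 and 3822 TPM at 6 h, against 25435, 30415 and 28588 TPM at 0 h, with a step of -2.91 ± 0.15. ACR6 carries 2 and was at 0.845, 0.464 and 0.593 TPM at 6 h, against 27.3, 22.8 and 25.8 TPM at 0 h, with a step of -4.01 ± 0.13. SIP2, an enzyme of raffinose breakdown, carries 2 as well and went the other way, at 359, 352 and 339 TPM at 6 h, against 33.3, 16.5 and 20.3 TPM at 0 h, with a step of 3.91 ± 0.14 and a scaled step of 1.90. A match is a stretch of letters and not a shown binding site.

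Genes of protein synthesis rose as a group. Ribosomal proteins took 10.68 ± 0.514% of TPM at 6 h and 0.769 ± 0.036% at 0 h (SD, n = 3 each). Of 322 listed, 288 were tested, 11 of them passing only through 6 h; 285 rose, 1 fell and 2 passed in neither direction, with a median step of 3.69 against 1.61 for all members. After scaling 250 were higher and 27 lower, with a median of 1.72. AT3G04840, ribosomal protein S3Ae, was at 937, 955 and 886 TPM at 6 h, against 16.6, 14.6 and 14.3 TPM at 0 h, a step of 5.84 ± 0.07 (limma, adjusted p = 1.96e-26). AT5G58420, ribosomal protein S4, was at 947, 987 and 934 TPM at 6 h, against 20.1, 17.01 and 19.3 TPM at 0 h, a step of 5.60 ± 0.07. The folds were 61.1 and 50.8, and within each time the 3 libraries differed little beside that. RACK1B and RACK1C, scaffold proteins that sit on the small ribosomal subunit, were among the 15 largest rises. RACK1B was at 252, 265 and 254 TPM at 6 h, against 1.08, 1.06 and 1.46 TPM at 0 h and RACK1C at 187, 201 and 183 TPM at 6 h, against 0.294, 0.137 and 0.049 TPM at 0 h.

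Proteins that build ribosomes in the nucleolus moved with them. Of 64 listed, 53 were tested, 52 rose and 1 fell; the median step was 3.39 and the scaled one 1.52, with 42 higher and 7 lower. FIB2, fibrillarin, which methylates ribosomal RNA, was at 295, 301 and 285 TPM at 6 h, against 0.455, 0.164 and 0.456 TPM at 0 h, a step of 7.77 ± 0.09. AT5G27120, a NOP56-like protein of the same methylation complex, was at 604, 616 and 599 TPM at 6 h, against 8.82, 6.86 and 7.38 TPM at 0 h, a step of 6.13 ± 0.08. The one that fell was AT3G22510, with a mean of 0.328 TPM at 6 h against 10.2 TPM at 0 h.

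Translation factors rose in 49 of 51 genes tested, with a median of 2.33, and 33 were higher and 11 lower after scaling. FBR12, the translation factor eIF5A, was at 1806, 1861 and 1796 TPM at 6 h, against 144, 119 and 124 TPM at 0 h, a step of 3.82 ± 0.08 and a scaled step of 1.77. EIF4A1, an RNA helicase of initiation, had a mean of 864 TPM at 6 h against 29.2 TPM at 0 h and the largest step of the list, 4.88. Aminoacyl-tRNA synthetases rose in 37 of 40 (median 2.54; 30 higher and 8 lower after scaling). Subunits of RNA polymerases I, II and III rose in 27 of 29 (median 1.98; 16 higher and 11 lower after scaling). The last of these lists stood closest to the typical gene.

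Folding and turnover of proteins rose as well. All 12 TCP-1/cpn60 chaperonins tested rose, with a median of 3.47, and all 12 were higher after scaling. Cpn60beta2, a subunit of the plastid chaperonin, was at 97.8, 93.1 and 93.0 TPM at 6 h, against 3.84, 3.15 and 3.33 TPM at 0 h, a step of 4.43 ± 0.10. Proteasome subunits rose in 41 of 42, with a median of 2.16; after scaling 21 were higher and 15 lower, with a median of 0.15. PAD2, a subunit of the proteasome core, was at 199, 202 and 208 TPM at 6 h, against 17.2, 17.1 and 19.6 TPM at 0 h, a step of 3.43 ± 0.06. The proteasome thus kept close to the typical gene, and the chaperonins exceeded it.

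Genes that equip plastids and mitochondria rose as well. Pentatricopeptide repeat proteins, which process RNA in plastids and mitochondria, rose in 266 of 269 genes tested of 313 listed, and none fell in TPM, while after scaling 216 were higher and 27 lower; 106 of the 269 passed only through 6 h and so had to rise. Their median step was 2.14 and the scaled one 0.96. PNM1 was at 187, 188 and 186 TPM at 6 h, against 7.72, 5.48 and 7.48 TPM at 0 h, a step of 4.59 ± 0.09. Import proteins of the mitochondrial TOM and TIM complexes rose in 26 of 29 (median 2.31), and after scaling 16 were higher and 10 lower (median 0.35), close to all members. Among them was the channel protein TOM40, at 142, 143 and 146 TPM at 6 h, against 14.0, 10.8 and 13.4 TPM at 0 h. The 2 that fell were TIM23-1 (step -0.62) and ATOEP16-2, a pore protein of the outer plastid envelope that shares the family name, with a mean of 564 TPM at 6 h against 3062 TPM at 0 h.

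**Figure D3:**
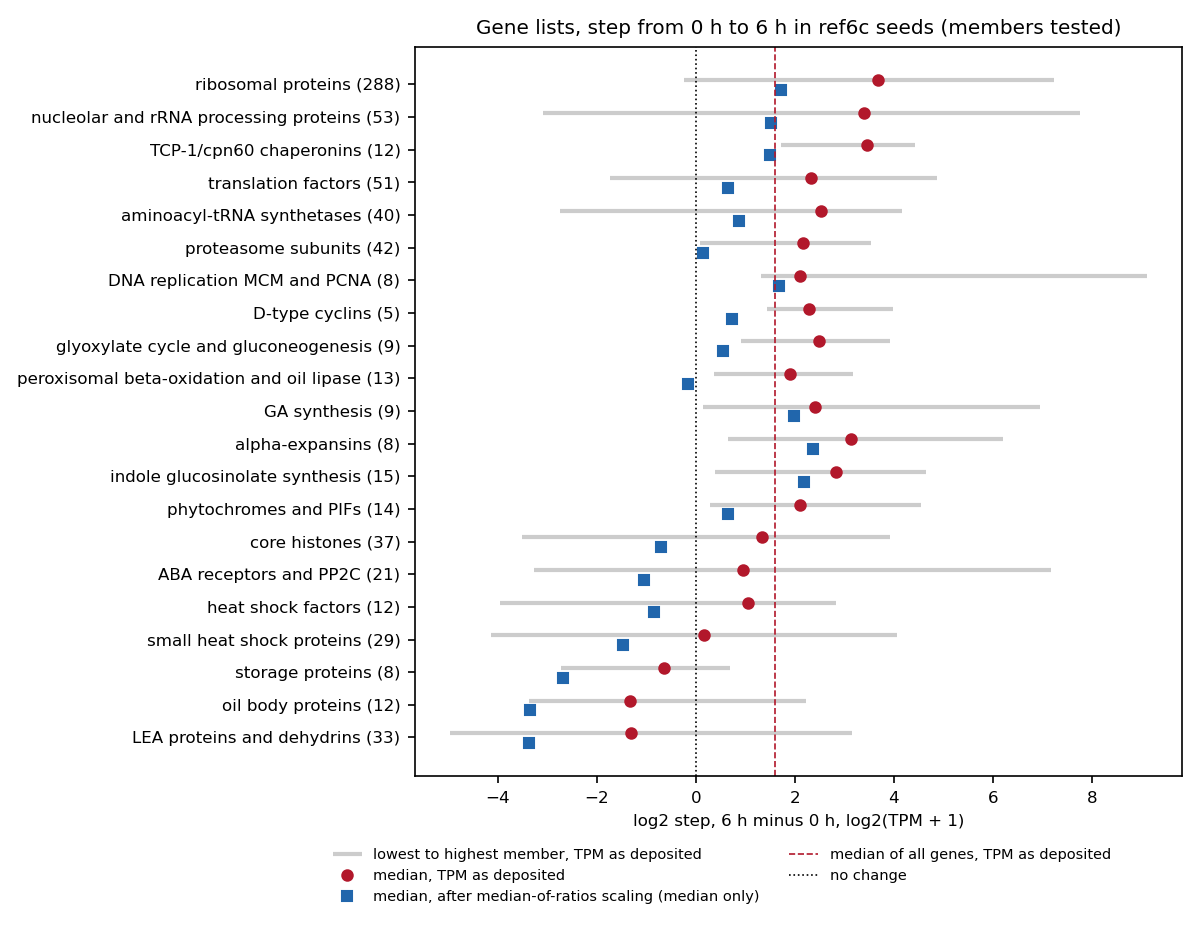
Median log2 step of 21 gene lists in ref6c seeds from TPM (red circles) and after median-of-ratios scaling (blue squares), with grey bars from the lowest to the highest member in TPM and the number of members tested in brackets; the dashed line marks the median of all genes, 1.61. Ribosomal and nucleolar proteins lie right of that line at 3.69 and 3.39, and storage, oil body and LEA proteins lie left of 0 at -0.64, -1.32 and -1.32.

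Letters known from promoters of growth genes were counted in the same way. The site II letters, TGGGCC or TGGGCT, were in 60.1% of 288 ribosomal protein promoters, 49.1% of 53 nucleolar ones and 40.5% of 42 proteasome ones, against 25.4% of all 15131. They were not confined to growth genes, with 48.3% of 29 promoters of small heat shock proteins, a list that moved in both directions. Pentatricopeptide promoters held them in 29% of 269 and LEA promoters in 24.2% of 33. The telo box AAACCCTA was in 15.6% of ribosomal and 11.3% of nucleolar promoters, against 3.89% of all. It was in 10.3% of small heat shock protein promoters, 6.32% of pentatricopeptide ones and 2.38% of proteasome ones. Over every gene called with a step of 1 or more the shares of site II and the telo box were 27.1% and 4.51%, close to those of all promoters. With a scaled step of 1 or more they were 30.1% and 5.9%. The promoters below, taken and oriented as above and chosen after their values were seen, show these letters in capitals for a ribosomal protein, a translation factor and the large subunit of ribonucleotide reductase, and their absence in the gene of the small subunit; RNR1 is printed over 210 bases to include its telo box.
AT5G58420 (chr5:23619259-23619458, plus strand): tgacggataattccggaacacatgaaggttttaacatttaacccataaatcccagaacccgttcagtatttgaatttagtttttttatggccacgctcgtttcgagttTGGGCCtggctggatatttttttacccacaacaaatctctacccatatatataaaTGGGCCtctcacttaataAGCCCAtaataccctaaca
FBR12 (chr1:9205600-9205799, plus strand): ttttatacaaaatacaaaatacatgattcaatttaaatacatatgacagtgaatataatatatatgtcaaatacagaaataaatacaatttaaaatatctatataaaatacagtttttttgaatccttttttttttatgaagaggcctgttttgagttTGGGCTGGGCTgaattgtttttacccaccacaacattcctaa
RNR1 (chr2:9293051-9293260, plus strand): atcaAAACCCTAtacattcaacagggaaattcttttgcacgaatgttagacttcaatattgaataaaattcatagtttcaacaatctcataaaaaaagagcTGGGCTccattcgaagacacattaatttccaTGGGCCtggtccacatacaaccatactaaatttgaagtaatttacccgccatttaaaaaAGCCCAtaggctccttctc
TSO2 (chr3:9981621-9981820, minus strand): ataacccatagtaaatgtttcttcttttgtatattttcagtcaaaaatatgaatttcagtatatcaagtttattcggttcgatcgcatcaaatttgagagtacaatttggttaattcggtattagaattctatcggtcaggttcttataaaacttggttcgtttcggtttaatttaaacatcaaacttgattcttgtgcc

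AT5G58420 carries 3 site II matches, FBR12 carries 2 and RNR1 carries 3 beside its telo box. TSO2 carries none of these letters in the window and had the largest step of all members. TSO2, the small subunit of ribonucleotide reductase, which makes the building blocks of DNA, was at 1279, 1293 and 1371 TPM at 6 h, against 1.24, 1.46 and 1.38 TPM at 0 h. That is a 964-fold rise, with a step of 9.12 ± 0.08 and a scaled step of 7.54 (limma, adjusted p = 1.56e-28). RNR1, its large partner, was at 115, 109 and 117 TPM at 6 h, against 3.42, 1.77 and 2.43 TPM at 0 h, a step of 5.05 ± 0.13.

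Genes of DNA replication were otherwise at low levels. Of 13 listed in that group, TSO2 and RNR1 included, 8 were tested, 6 of them passing only through 6 h; all 8 rose, also after scaling. PCNA2, the sliding clamp of DNA polymerase, was at 17.2, 18.1 and 17.7 TPM at 6 h, against 0.177, 0.166 and 0.355 TPM at 0 h. MCM5, a subunit of the replicative helicase, was at 3.73, 3.69 and 3.71 TPM at 6 h, against 0.399, 0.119 and 0.273 TPM at 0 h. All 5 D-type cyclins tested of 10 listed, 2 of them passing only through 6 h, rose under both scales. CYCD2;1, which links growth signals to the cell cycle, was at 77.8, 83.7 and 77.9 TPM at 6 h, against 4.18, 3.88 and 4.16 TPM at 0 h, a step of 3.99 ± 0.06.

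Core histones split. Of 37 tested 29 rose and 3 fell, with a median of 1.33, but after scaling 8 were higher and 22 lower, with a median of -0.71. HTB4, a histone H2B, was at 971, 985 and 940.4 TPM at 6 h, against 95.4, 108 and 103 TPM at 0 h, a step of 3.23 ± 0.07. AT1G08170, another histone gene, fell to a mean of 70.6 TPM at 6 h against 811 TPM at 0 h, a step of -3.51. HTA8, a histone H2A of the H2A.Z type, was at 13.7, 14.2 and 11.8 TPM at 6 h, against 0.048, 0.0449 and 0.192 TPM at 0 h in ref6c seeds and at 31.7, 31.2 and 31.3 TPM at 6 h, against 0.0469, 0.14 and 0.134 TPM at 0 h in Col seeds. The difference of the steps was -1.17 ± 0.13 (limma, adjusted p = 2.07e-06), a call that voom on recovered reads, which works on ratios, did not make (-0.99, adjusted p = 0.355). HTA8 was the 1 core histone of the 37 with a smaller step than in Col, against 2.32% of all members. A larger step was called for 4 of them, against 6.01%, and the median difference of the list was 0.15. After scaling 1 was larger and 1 smaller, and voom called 4 larger and 0 smaller.

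Genes of the last steps of GA synthesis had the largest steps of their pathway. Of 14 genes listed 9 were tested, 4 of them passing only through 6 h; 8 rose, and 5 were higher and 3 lower after scaling. GA3OX2, which makes the bioactive hormone, was at 115, 142 and 121 TPM at 6 h, against 0, 0 and 0.0436 TPM at 0 h. GA3OX1, the enzyme of the same step, was at 126, 122 and 118 TPM at 6 h, against 0.0419, 0.0392 and 0 TPM at 0 h. Both were at or near 0 in the dry seed, and their steps were 6.96 ± 0.11 and 6.91 ± 0.16. GA20OX3, which acts just before them, was at 203, 196 and 197 TPM at 6 h, against 0.963, 0.643 and 1.15 TPM at 0 h, a step of 6.71 ± 0.11. The enzymes that act earlier had steps between 0.14 and 1.76, the typical gene's or less; GA2, kaurene synthase, had a mean of 3.03 TPM at 6 h against 2.70 TPM at 0 h and did not pass the test (limma, adjusted p = 0.291).

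In the list of GA receptors and DELLA proteins, which repress the GA response, 8 genes were tested. Of these 6 rose and 2 fell, against 85.0% and 9.51% of all members. After scaling 4 were higher and 3 lower, against 44.6% and 42.8%. RGL2, the DELLA protein best known for holding back germination, was at 121, 117 and 124 TPM at 6 h, against 6.30, 4.20 and 6.52 TPM at 0 h, a step of 4.21 ± 0.10. RGA1 was at 74.1, 73.4 and 70.9 TPM at 6 h, against 3.39, 2.34 and 2.09 TPM at 0 h, a step of 4.37 ± 0.10, and GAI had a step of 3.05. GID1A and GID1C, receptors of the hormone, fell slightly, with steps of -0.27 and -0.54. Messages of the synthesis genes GA3OX1, GA3OX2 and GA20OX3 and of the repressors RGL2, RGA1 and GAI were thus all higher at 6 h. The RGL2 step differed from that of Col by -0.60 ± 0.14 (limma, adjusted p = 0.00758).

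Genes of ABA moved in both directions. NCED4, a carotenoid dioxygenase, was at 3.40, 4.03 and 4.47 TPM at 6 h, against 91.2, 53.0 and 56.2 TPM at 0 h, a step of -3.73 ± 0.18, and NCED5, of the ABA-making branch, was at 4.12, 4.53 and 5.52 TPM at 6 h, against 0.837, 0.298 and 0.799 TPM at 0 h, a step of 1.81 ± 0.19. Over the 9 ABA synthesis genes tested 5 rose and 2 fell, and after scaling 1 was higher and 8 lower. CYP707A2, which breaks ABA down in imbibed seeds, was at 39.2, 36.0 and 34.5 TPM at 6 h, against 9.29, 9.78 and 9.52 TPM at 0 h, with a step of 1.83 ± 0.14 that left -0.11 after scaling. CYP707A1, the other of the 2 ABA breakdown genes tested, went the opposite way. Its mean was 0.410 TPM at 6 h against 1.63 TPM at 0 h, with a step of -0.88 and a scaled step of -2.13. Over 21 receptors and phosphatases of the pathway 14 rose and 7 fell, and after scaling 6 were higher and 13 lower.

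PYL4, an ABA receptor, was at 159.6, 199 and 168 TPM at 6 h, against 0.114, 0.107 and 0.456 TPM at 0 h, a step of 7.18 ± 0.13, while the phosphatase ABI2, which shuts the pathway off, was at 4.71, 5.31 and 4.48 TPM at 6 h, against 52.9, 53.8 and 59.9 TPM at 0 h, a step of -3.28 ± 0.12. The receptors PYL7, PYL12 and PYL13 fell, with steps of -2.56, -2.51 and -2.25. Of 11 kinases and transcription factors of the response tested 9 rose and 1 fell, against 85.0% and 9.51% of all members. After scaling 3 were higher and 7 lower, against 44.6% and 42.8%. Among those that rose, ABI4 was at 199.8, 223 and 201 TPM at 6 h, against 1.96, 0.973 and 1.66 TPM at 0 h, a step of 6.39 ± 0.14. ABI3 was at 331, 310.1 and 331 TPM at 6 h, against 40.4, 20.2 and 22.5 TPM at 0 h, a step of 3.57 ± 0.16. ABI5, which acts downstream of ABI3, had a mean of 135 TPM at 6 h against 159 TPM at 0 h and did not pass the test (limma, adjusted p = 0.245), though it was lower after scaling, at -2.23. The ABI3 and ABI4 messages were higher after scaling as well, at 1.56 and 4.80.

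DOG1, the main dormancy gene, was at 2.45, 2.65 and 3.17 TPM at 6 h, against 33.2, 31.2 and 33.6 TPM at 0 h, a step of -3.17 ± 0.12 (limma, adjusted p = 6.05e-18). It was the one gene of 11 dormancy regulators that fell; 9 rose, or 4 after scaling with 6 lower. AIL5, an AP2 factor also called CHO1, was at 156, 163 and 158 TPM at 6 h, against 17.8, 10.9 and 12.4 TPM at 0 h, a step of 3.47 ± 0.13. SPT, a repressor of germination in the cold, was at 11.1, 11.8 and 9.86 TPM at 6 h, against 0.605, 0.233 and 0.606 TPM at 0 h, a step of 3.02 ± 0.12. Of the 13 jasmonate synthesis and JAZ genes tested 8 rose and 4 fell, and after scaling 1 was higher and 8 lower.

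Enzymes that turn stored oil into sugar rose together. All 9 genes of the glyoxylate cycle and gluconeogenesis tested rose, 6 of them also after scaling, and they took 1.98% of TPM at 6 h against 0.338% at 0 h. ICL, isocitrate lyase, was at 10634, 10655 and 10866 TPM at 6 h, against 2053, 1316 and 1567 TPM at 0 h, a step of 2.73 ± 0.11, and was among the 5 most abundant genes at 6 h. PCK1, which opens the way to sugar, was at 2269, 2125 and 2242 TPM at 6 h, against 193, 117 and 136 TPM at 0 h, a step of 3.92 ± 0.12. All 13 genes of peroxisomal beta-oxidation and oil lipase rose, with a median of 1.90; after scaling 5 were higher and 6 lower, and the median was -0.15, so their rise was that of the typical gene. MFP2, a multifunctional enzyme of that spiral, was at 1029, 989 and 1046 TPM at 6 h, against 136, 95.5 and 110.1 TPM at 0 h, a step of 3.17 ± 0.10.

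The genes of raffinose and galactinol metabolism split. Of 11 listed 7 were tested, 2 of them passing only through 6 h. In TPM 5 rose and 2 fell, against 85.0% and 9.51% of all members. After scaling 3 were higher and 4 lower, against 44.6% and 42.8%. GolS2 and GolS1, which make galactinol, fell with steps of -5.47 and -0.77, and SIP1, SIP2 and DIN10, of the raffinose synthase and galactosidase family, rose. DIN10 was at 30.4, 42.4 and 32.1 TPM at 6 h, against 0, 0.0697 and 0.0249 TPM at 0 h, a step of 5.11 ± 0.29. FBA8, a cytosolic aldolase, and the purple acid phosphatases PAP10 and PAP17 were among the 15 largest rises. PAP10, which frees phosphate from organic compounds, was at 195, 198 and 185 TPM at 6 h, against 0.212, 0.226 and 0.212 TPM at 0 h. NIA1, nitrate reductase, was at 569.6, 527 and 555 TPM at 6 h, against 4.38, 3.10 and 2.73 TPM at 0 h, a step of 6.99 ± 0.11.

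Several genes that loosen the cell wall were at or near 0 in the dry seed and high at 6 h. Of 23 alpha-expansins listed, wall-loosening proteins, 8 were tested, 6 of them passing only through 6 h and so bound to rise; all 8 rose and 7 did so after scaling. EXPA10 was at 60.1, 92.9 and 68.9 TPM at 6 h, against 0, 0 and 0 TPM at 0 h, at least 1736-fold higher when 3 reads over the 0 h group are taken as the floor. EXPA20 was at 62.3, 62.0 and 60.4 TPM at 6 h, against 2.36, 1.76 and 1.95 TPM at 0 h, a step of 4.38 ± 0.13. Xyloglucan endotransglucosylases, which cut and rejoin wall chains, rose in 8 of 9 tested of 30 listed, but 5 of the 9 passed only through 6 h and so had to rise, and 4 were higher and 3 lower after scaling. The exception was XTH25, which was at 141, 129 and 152 TPM at 6 h, against 4229.9, 4088 and 4339 TPM at 0 h. The mannanases that soften the endosperm split likewise: MAN7 was at 31.1, 30.5 and 34.4 TPM at 6 h, against 2.11, 1.23 and 1.42 TPM at 0 h, a step of 3.68 ± 0.13, and MAN1 was at 0.785, 0.562 and 0.875 TPM at 6 h, against 17.9, 17.9 and 17.9 TPM at 0 h, a step of -3.45 ± 0.09. DGR2, a wall protein with a DUF642 domain, was at 397, 404 and 391 TPM at 6 h, against 0.167, 0.25 and 0.201 TPM at 0 h, the second largest rise.

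Water channels moved in both directions. PIP3, an aquaporin of the plasma membrane, was at 285, 320.1 and 278 TPM at 6 h, against 1.52, 1.46 and 1.60 TPM at 0 h, a step of 6.87 ± 0.11. BETA-TIP and TIP3;1, aquaporins of the storage vacuole, fell with steps of -1.42 and -0.62; the TIP3;1 call was lost without 0 h library 1 or 6 h library 2. Over the 13 aquaporins tested 9 rose and 4 fell, or 3 and 8 after scaling. Of 12 hypoxia genes 6 rose and 3 fell, or 4 and 7 after scaling. HB1, a non-symbiotic haemoglobin, was at 63.4, 69.7 and 56.9 TPM at 6 h, against 1.18, 2.34 and 1.05 TPM at 0 h, a step of 4.70 ± 0.26, while ADH1, alcohol dehydrogenase, fell to a mean of 201 TPM at 6 h against 616 TPM at 0 h.

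All 14 genes of light perception tested (phytochromes, cryptochromes, PIFs and their partners) rose, against 85.0% of all members, and after scaling 8 were higher and 5 lower. PHYA, the phytochrome that builds up in dark-imbibed seeds, was at 148, 145 and 155 TPM at 6 h, against 7.94, 4.55 and 5.21 TPM at 0 h, a step of 4.48 ± 0.12. PIL5, also called PIF1, which represses germination in the dark, was at 140.4, 139 and 143 TPM at 6 h, against 7.25, 3.41 and 5.20 TPM at 0 h, a step of 4.54 ± 0.13. Of 15 clock genes 13 rose and 1 fell, about the share of all members, and after scaling 3 were higher and 7 lower. LHY, a morning factor of the clock, was at 11.1, 11.1 and 10.7 TPM at 6 h, against 0.255, 0.102 and 0.0729 TPM at 0 h, a step of 3.39 ± 0.10.

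Photosynthesis genes of the nucleus rose in 23 of 30 tested and fell in 4, or 14 and 12 after scaling; in TPM the share that rose lay below the 85.0% of all members, and after scaling both shares were near theirs. PSBTN, a photosystem II subunit, was at 44.9, 49.1 and 44.3 TPM at 6 h, against 0.206, 0.771 and 0.62 TPM at 0 h, and ATPC1, the gamma subunit of the chloroplast ATP synthase, was at 113, 119 and 117 TPM at 6 h, against 0.107, 0.1 and 0.107 TPM at 0 h. Both were under 1 TPM in every 0 h library. Genes encoded in the chloroplast rose in 53 of 74 tested and fell in 5 (15 higher and 39 lower after scaling), and those of the mitochondrion rose in 47 of 61 and fell in 9 (26 and 26). Of those 61, 24 passed only through 6 h and so had to rise. The shares that rose were, for both organelles, below the 85.0% of all members. How total RNA was selected for the libraries is not given in the sources used here, and it bears on organelle transcripts.

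Genes that write, read or erase the Polycomb mark rose in TPM about as often as other genes. Of 14 Polycomb components tested 13 rose and 1, RING1A, fell, against 85.0% and 9.51% of all members, with a median of 2.28; after scaling 9 were higher and 3 lower, with a median of 0.62. MSI1, a histone-binding subunit, was at 74.0, 76.3 and 73.4 TPM at 6 h, against 14.8, 11.9 and 12.3 TPM at 0 h, a step of 2.44 ± 0.07. VEL1, a PHD-finger partner of the complex, was at 19.9, 19.6 and 21.2 TPM at 6 h, against 1.92, 0.946 and 1.45 TPM at 0 h, a step of 3.14 ± 0.11. All 4 demethylase genes listed rose in TPM, but after scaling ELF6 and JMJD5 were lower, at -0.59 and -0.77. By limma 0 of the 14 Polycomb components differed from Col in their step at an adjusted p under 0.05; 3 had a larger and 2 a smaller step at an unadjusted p under 0.05, voom called 1 larger, and 1 was smaller after scaling. Without 0 h library 1 of ref6c 3 were larger and 1 smaller, where 19.8% and 3.67% of all members were.

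Developmental regulators known as targets of that mark stayed below the typical gene as a list. Of 25 listed 11 were tested; 6 rose and 1 fell, and after scaling 2 were higher and 8 lower; the median was 0.77, and -1.04 after scaling. KNAT1, a homeobox factor of the shoot tip, was at 9.31, 8.39 and 9.26 TPM at 6 h, against 0.805, 0.554 and 0.664 TPM at 0 h, a step of 2.58 ± 0.10. AGL31, a MADS-box flowering repressor also called MAF2, was at 16.4, 16.8 and 17.3 TPM at 6 h, against 31.4, 35.6 and 36.5 TPM at 0 h, a step of -0.99 ± 0.08. By limma 0 of the 11 differed from Col in their step at an adjusted p under 0.05, 2 had a larger step at an unadjusted p under 0.05, and voom called 0. Without 0 h library 1 of ref6c 1 was larger, where 19.8% of all members were.

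The step was then set against that of Col. In Col the same genes had a median step of 1.53, with 12639 higher (82.7%) and 1653 lower (10.8%). Of the members, 14438 were called in ref6c and 14292 in Col, 13927 in both, and 13886 of those had the same sign. The difference of the steps, ref6c minus Col, which shares no library between the genotypes, was tested for every member. It was positive for 918 members (6.01%) and negative for 354 (2.32%), around a median of 0.08; after scaling these were 654 (4.28%) and 707 (4.63%). With a 2-fold minimum there were 180 (1.18%) and 60 (0.393%). These counts depend on 0 h library 1 of ref6c, without which 3026 were positive (19.8%) and 561 negative (3.67%). Voom called 987 positive (6.52%) and 134 negative (0.886%) of the 15128 members it tested.

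**Figure D4:**
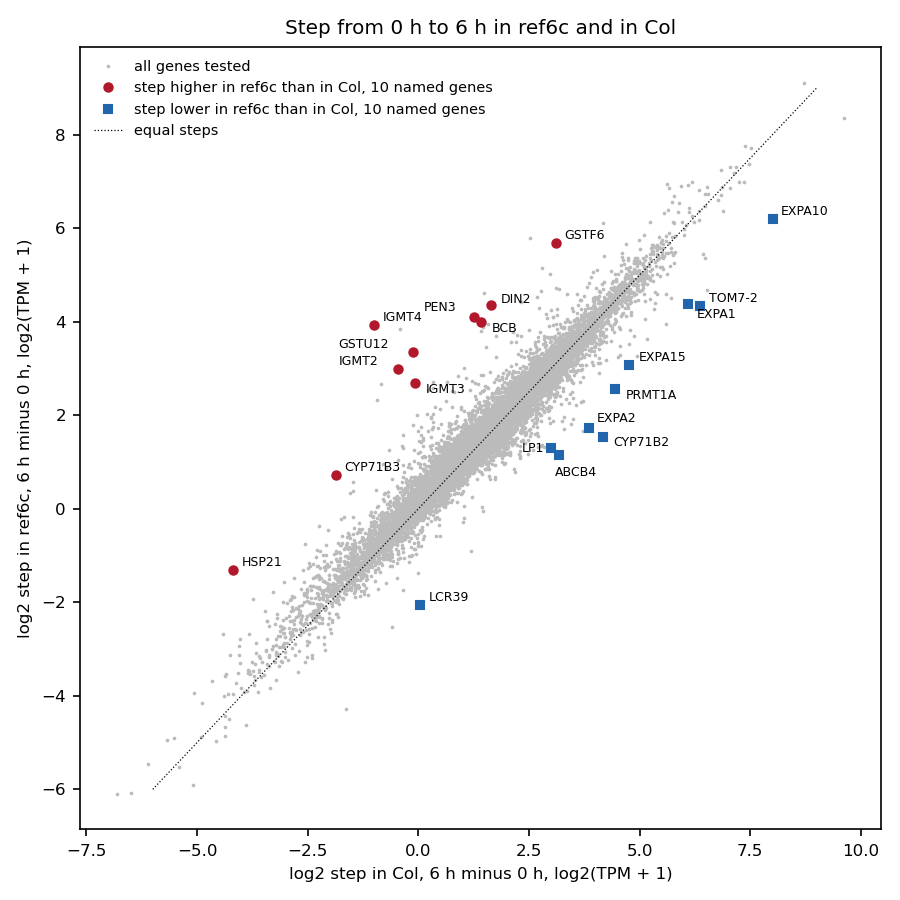
Log2 step of each of the 15275 members in ref6c (y axis) against that in Col (x axis), both on the log2(TPM + 1) scale, with the 10 genes of the largest difference each way named and the dotted line at equal steps. Most genes lie along the line, IGMT4 stands above it by 4.92 and CYP71B2 below it by 2.63.

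Many genes of indole glucosinolates, sulphur-containing defence compounds, had larger steps in ref6c. Of 20 listed 15 were tested, 11 of them passing only through the 6 h libraries of ref6c, so that their rise in ref6c was fixed by the filter, which reads no Col library. Of the 15, 13 had a larger step than in Col and none a smaller one, against 6.01% and 2.32% of all members, and 5.12% and 6.91% of the 2794 members that passed only through 6 h. After scaling 11 were larger, by voom 9, and without 0 h library 1 of ref6c again 13. The shares of all members were 4.28%, 6.52% and 19.8%. CYP83B1, which commits indole aldoxime to this pathway, was at 27.5, 25.6 and 24.6 TPM at 6 h, against 0.123, 0.0768 and 0 TPM at 0 h in ref6c, and at 11.2, 10.3 and 10.6 TPM at 6 h, against 0.844, 0.638 and 0.687 TPM at 0 h in Col. The difference of the steps was 1.89 ± 0.14 (limma, adjusted p = 4.54e-09). SOT16, which adds the sulphate, was at 198, 186 and 171 TPM at 6 h, against 8.32, 7.78 and 5.23 TPM at 0 h in ref6c, and at 46.1, 45.8 and 43.4 TPM at 6 h, against 7.96, 6.18 and 4.74 TPM at 0 h in Col, a difference of 1.85 ± 0.19. At 6 h every ref6c library was above every Col library in both genes, while at 0 h the genotypes overlapped in SOT16 and ref6c was lower in CYP83B1.

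IGMT4, a methyltransferase that decorates these compounds, was at 23.4, 23.2 and 18.4 TPM at 6 h, against 0.639, 0.478 and 0.342 TPM at 0 h in ref6c. In Col it was at 0.909, 1.38 and 0.779 TPM at 6 h, against 4.42, 3.27 and 1.78 TPM at 0 h, with every 6 h library below every 0 h library; the difference was 4.92 ± 0.24 (limma, adjusted p = 5.06e-12). IGMT2 was at 7.52, 8.10 and 5.54 TPM at 6 h, against 0, 0 and 0 TPM at 0 h in ref6c and at 0.133, 0.134 and 0.0701 TPM at 6 h, against 0.683, 0.58 and 0.37 TPM at 0 h in Col, and its rise in ref6c was at least 145-fold against a floor of 3 reads over the 0 h group. IGMT3 was at 4.88, 7.88 and 4.23 TPM at 6 h, against 0, 0 and 0 TPM at 0 h in ref6c and at 0.337, 0.204 and 0 TPM at 6 h, against 0.247, 0.147 and 0.281 TPM at 0 h in Col. IGMT2, IGMT3 and IGMT4 are neighbours and near copies on chromosome 1, and how reads were shared among them is not given, so the 3 values are not independent. IGMT5, elsewhere on chromosome 1, had steps of 4.33 in ref6c and 4.61 in Col, and that difference did not pass the test (limma, adjusted p = 0.204).

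Sulphate assimilation and detoxification also held larger steps. Of 11 sulphate genes tested, 4 of them passing only through 6 h, 6 had a larger step in ref6c and none a smaller one. Over all members 6.01% were larger and 2.32% smaller, and of the 2794 that passed only through 6 h 5.12% and 6.91%. After scaling 5 sulphate genes were larger and 1 smaller, against 4.28% and 4.63% of all members. APR1, which reduces activated sulphate, was at 27.4, 29.9 and 25.5 TPM at 6 h, against 3.75, 3.05 and 5.22 TPM at 0 h in ref6c and at 5.80, 6.86 and 7.75 TPM at 6 h, against 2.64, 2.51 and 2.19 TPM at 0 h in Col, a difference of 1.36 ± 0.17. Of 33 glutathione S-transferases 9 had a larger step and none a smaller one, against 6.01% and 2.32% of all members. After scaling 6 were larger, against 4.28%. GSTU12 was at 10.9, 10.4 and 8.63 TPM at 6 h, against 0.178, 0.0555 and 0 TPM at 0 h in ref6c and at 0.791, 0.56 and 0.501 TPM at 6 h, against 1.104, 0.748 and 0.441 TPM at 0 h in Col, a difference of 3.46 ± 0.24. GSTU13, of the same class, was at 29.2, 25.7 and 28.6 TPM at 6 h in ref6c, against 108, 96.6 and 96.3 TPM in Col, and at 1.06, 1.85 and 2.03 TPM at 0 h in ref6c, against 32.3, 34.6 and 35.4 TPM in Col. It was thus below Col at both times, and its difference of 1.93 ± 0.16 says that the gap was wider at 0 h. GSTF6 was at 434, 405 and 442 TPM at 6 h in ref6c, against 525, 474 and 528 TPM in Col, and at 7.86, 14.4 and 3.25 TPM at 0 h in ref6c, against 88.1, 43.1 and 51.2 TPM in Col. Its difference of 2.57 ± 0.47 thus came with lower values in ref6c at 0 h and not with higher ones at 6 h.

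Other genes with larger steps in ref6c were PEN3, DIN2 and BCB. PEN3, a transporter of defence compounds, was at 24.4, 24.1 and 21.8 TPM at 6 h, against 0.676, 0.255 and 0.36 TPM at 0 h in ref6c, and at 6.34, 6.75 and 8.81 TPM at 6 h, against 2.88, 2.69 and 1.83 TPM at 0 h in Col, a difference of 2.84 ± 0.20. DIN2, a beta-glucosidase induced in the dark, was at 40.8, 37.9 and 41.8 TPM at 6 h, against 1.13, 0.877 and 0.977 TPM at 0 h in ref6c, and at 6.61, 6.70 and 7.48 TPM at 6 h, against 1.59, 1.67 and 1.39 TPM at 0 h in Col, a difference of 2.73 ± 0.15. BCB, a blue copper protein, was at 116, 116 and 103 TPM at 6 h in ref6c, against 22.1, 22.8 and 22.2 TPM in Col, while at 0 h the genotypes overlapped, at 5.45, 7.09 and 5.58 TPM in ref6c and 8.64, 8.67 and 6.22 TPM in Col. In these 3 genes the 6 h libraries of ref6c were all above those of Col.

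HSP21 and CYP71B3 differed most in the dry seed. HSP21, a small heat shock protein of the plastid, was at 0.194, 0.378 and 0.294 TPM at 6 h in ref6c, against 0.667, 2.117 and 1.21 TPM in Col, and at 2.22, 2.74 and 1.72 TPM at 0 h in ref6c, against 39.4, 42.2 and 38.0 TPM in Col. Its difference was 2.87, and the call was lost with a pseudocount of 0.1 (2.35, limma, adjusted p = 0.0884) and by voom (2.23, adjusted p = 0.0569). It was 1 of 6 small heat shock proteins of 29 with a larger step in ref6c, against 6.01% of all members. After scaling 5 were larger, against 4.28%, and none had a smaller step on either scale. CYP71B3, a cytochrome P450, was at 1.00, 1.30 and 1.13 TPM at 6 h in ref6c, against 5.85, 6.80 and 7.56 TPM in Col, and at 0.328, 0.23 and 0.329 TPM at 0 h in ref6c, against 24.5, 29.0 and 28.1 TPM in Col. At both times ref6c was below Col in CYP71B3; the larger step says only that the gap was wider at 0 h. Its own step in ref6c, 0.72, was -0.04 after scaling.

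Several wall-loosening genes had smaller steps in ref6c on the log2(TPM + 1) scale. Of the 8 expansins 4 had a smaller step than in Col and none a larger one, against 2.32% and 6.01% of all members. Of the 2794 members that passed only through 6 h, as 6 of the 8 did, 6.91% were smaller and 5.12% larger. The expansin counts were the same after scaling, against 4.63% and 4.28% of all members. The list's median step was 3.13 in ref6c and 4.17 in Col. EXPA10 was at 60.1, 92.9 and 68.9 TPM at 6 h in ref6c, against 341, 276 and 220.3 TPM in Col, with both genotypes under 0.1 TPM at 0 h. The difference of the steps was -1.81 ± 0.25 (limma, adjusted p = 2.61e-05). EXPA1 was at 21.0, 24.5 and 19.8 TPM at 6 h in ref6c, against 91.0, 69.0 and 75.9 TPM in Col, a difference of -1.72 ± 0.19. EXPA15 was at 10.5, 10.2 and 9.70 TPM at 6 h, against 0.395, 0.37 and 0.22 TPM at 0 h in ref6c, and at 38.0, 35.8 and 38.6 TPM at 6 h, against 0.473, 0.426 and 0.367 TPM at 0 h in Col, a difference of -1.69 ± 0.15. EXPA2, an expansin of the endosperm, was at 3.47, 3.90 and 2.85 TPM at 6 h in ref6c, against 15.7, 12.01 and 20.1 TPM in Col, a difference of -2.13 ± 0.20. In all 4 the 6 h libraries of ref6c lay below those of Col. These genes were under 1 TPM at 0 h in both genotypes, so the difference is mainly that of the 6 h levels, and voom called 1 of the 8 and turned the EXPA10 difference to 0.12.

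EXPA20 and EXPA8 had steps in ref6c near those of Col: 4.38 in ref6c and 4.48 in Col for EXPA20, and 3.19 in ref6c and 3.10 in Col for EXPA8. Among the xyloglucan endotransglucosylases 4 of 9 had a smaller step than in Col, against 2.32% of all members. Of the members that passed only through 6 h, as 5 of the 9 did, 6.91% were smaller. After scaling 3 of the 9 were smaller, against 4.63% of all members, and by voom 1, against 0.886%. XTH16 was at 22.4, 23.9 and 20.7 TPM at 6 h, against 0, 0 and 0.12 TPM at 0 h in ref6c, and at 44.3, 35.0 and 32.4 TPM at 6 h, against 0, 0 and 0 TPM at 0 h in Col, a difference of -0.75 ± 0.19 that voom did not call (-1.52, adjusted p = 0.491). DGR2, the wall protein among the largest rises, was at 397, 404 and 391 TPM at 6 h in ref6c, against 1769, 1596 and 1619 TPM in Col, and at 0.167, 0.25 and 0.201 TPM at 0 h in ref6c, against 1.41, 1.00 and 0.9 TPM in Col. Its levels were thus lower in ref6c at both times. The difference of the steps was -1.26 ± 0.12, but the ratio of the means, 6 h over 0 h, was 1930-fold in ref6c and 1506-fold in Col. With a pseudocount of 0.1 the difference was -0.10 (limma, adjusted p = 0.765), and by voom it turned to 0.25 (adjusted p = 0.726).

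The other named genes with smaller steps came from different families. CYP71B2, a cytochrome P450, was at 2.46, 1.30 and 2.54 TPM at 6 h, against 0.0411, 0 and 0.123 TPM at 0 h in ref6c, and at 22.0, 18.4 and 20.4 TPM at 6 h, against 0.201, 0.159 and 0.191 TPM at 0 h in Col, a difference of -2.63 ± 0.21. TOM7-2, a small subunit of the mitochondrial import pore, was at 18.9, 21.2 and 18 TPM at 6 h, against 0, 0 and 0 TPM at 0 h in ref6c, and at 166, 172 and 128 TPM at 6 h, against 1.57, 1.04 and 0.249 TPM at 0 h in Col, a difference of -2.03 ± 0.27. PRMT1A, a protein arginine methyltransferase, was at 4.56, 6.04 and 4.51 TPM at 6 h in ref6c, against 24.2, 21.9 and 21.0 TPM in Col, a difference of -1.88 ± 0.16. At 0 h it was at 0, 0.0334 and 0 TPM in ref6c and at 0.0699, 0.104 and 0.0332 TPM in Col. The ratio of its means, 6 h over 0 h, was 453-fold in ref6c and 324-fold in Col, on 0 h values near 0. For CYP71B2 that ratio was 38.3-fold in ref6c and 110-fold in Col. In all 3 every 6 h library of ref6c was below every one of Col. Voom called none of the 3, and the TOM7-2 difference turned to 0.14 with a pseudocount of 0.1.

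ABCB4, an auxin transporter, was at 1.62, 1.71 and 1.54 TPM at 6 h, against 0.345, 0.0134 and 0.216 TPM at 0 h in ref6c, and at 14.0, 12.7 and 15.1 TPM at 6 h, against 0.689, 0.6 and 0.614 TPM at 0 h in Col, a difference of -2.04 ± 0.19 that voom did not call (-0.64, adjusted p = 0.577). LP1, a lipid transfer protein, was at 4.22, 3.42 and 3.19 TPM at 6 h, against 0.345, 1.37 and 1.04 TPM at 0 h in ref6c, and at 8.39, 8.94 and 8.61 TPM at 6 h, against 0.0843, 0.585 and 0 TPM at 0 h in Col, a difference of -1.71 ± 0.30 that voom did not call (-3.78, adjusted p = 0.0539); its step in ref6c, 1.30, was 0.02 after scaling. LCR39, a small cysteine-rich peptide, was at 0, 0.589 and 1.22 TPM at 6 h, against 4.01, 3.12 and 11.2 TPM at 0 h in ref6c, and at 1.19, 0.6 and 0.313 TPM at 6 h, against 0, 0.864 and 1.24 TPM at 0 h in Col. The difference of -2.10 ± 0.46 rests on 0 h values in ref6c that differ widely among themselves, and the call was lost with a pseudocount of 0.1 (-4.07, limma, adjusted p = 0.0537).

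**Figure D5:**
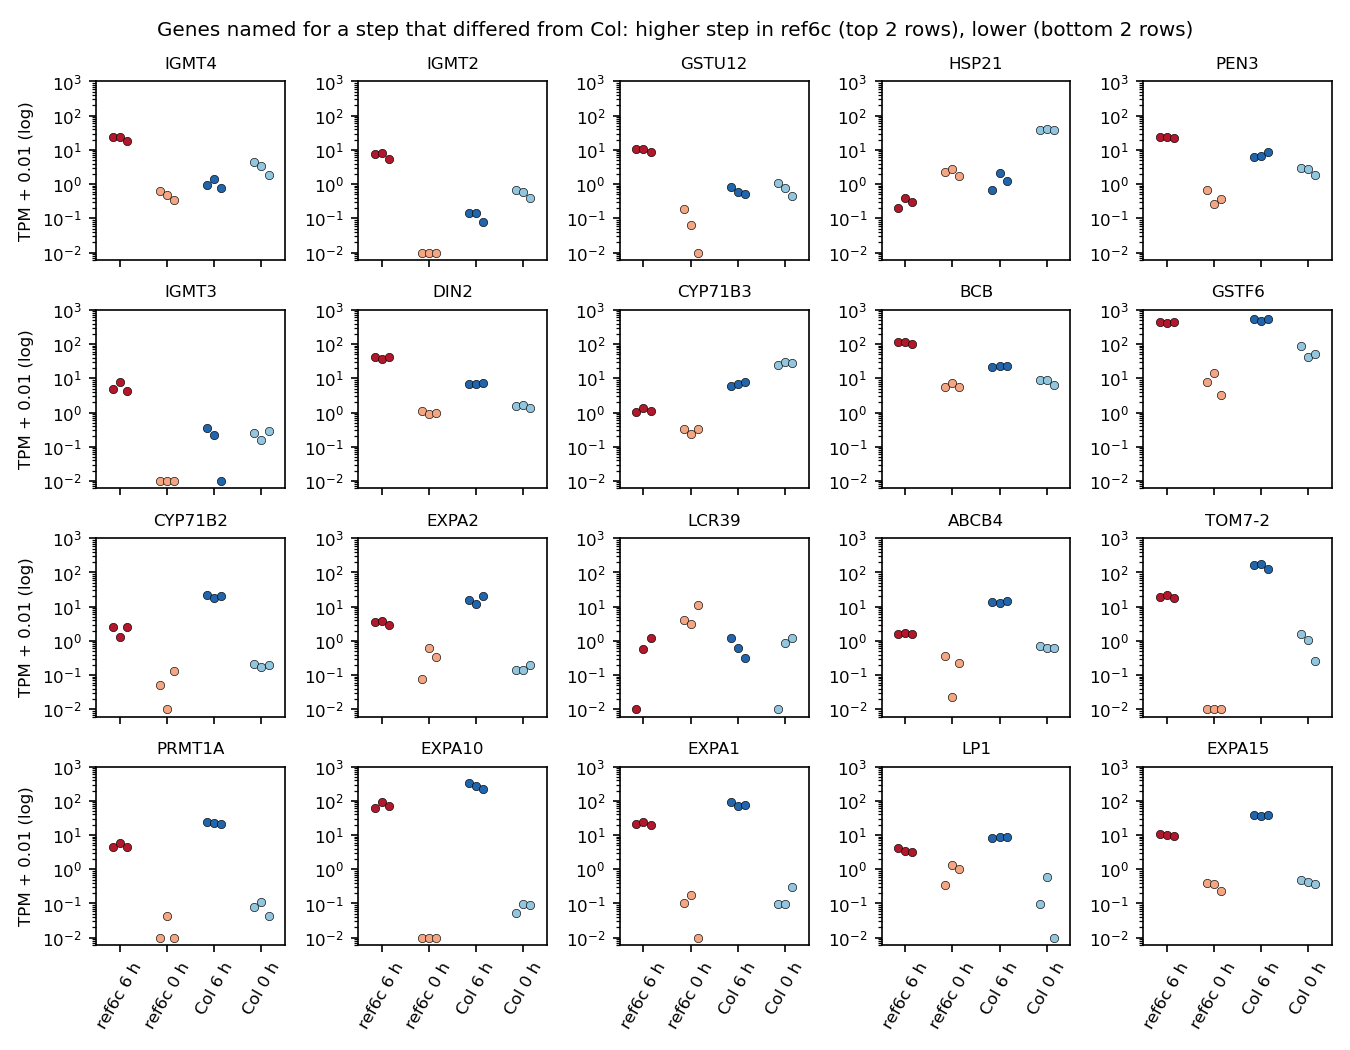
TPM + 0.01 on a log axis in each library of ref6c 6 h, ref6c 0 h, Col 6 h and Col 0 h for the 10 genes with the largest positive difference of the step (upper rows) and the 10 with the largest negative one (lower rows). EXPA10 shows the lower pattern, 60.1, 92.9 and 68.9 TPM at 6 h in ref6c against 341, 276 and 220.3 TPM in Col, and HSP21 and CYP71B3 differ chiefly at 0 h.

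GA and clock genes also held differences. GA3OX2 was at 115, 142 and 121 TPM at 6 h in ref6c, against 56.6, 46.1 and 44.6 TPM in Col, a difference of 1.34 ± 0.15 (limma, adjusted p = 1.33e-06), and GA3OX1 had a difference of 0.96 ± 0.22. Voom called neither (1.32, adjusted p = 0.483, and 0.41, adjusted p = 0.86), and that of GA3OX1 was also lost with a pseudocount of 0.1 (0.83, limma, adjusted p = 0.157). Of 15 clock genes 6 had a larger step in ref6c and none a smaller one, against 6.01% and 2.32% of all members. After scaling 4 were larger, against 4.28% of all members, and by voom 8, against 6.52%. Without 0 h library 1 of ref6c 11 were larger, against 19.8% of all members. PRR9, PRR7 and PRR5, repressors of the clock, were among the 6, with differences of 0.64, 0.63 and 0.64; each of the 3 calls was lost when some single libraries were left out, and those of PRR9 and PRR5 after scaling. Of 288 ribosomal proteins 13 had a larger and 8 a smaller step than in Col, shares near those of all members. After scaling the counts were 4 and 13, where 4.28% and 4.63% of all members were larger and smaller. By voom they were 14 and 2, where 6.52% and 0.886% were. Without 0 h library 1 of ref6c they were 21 and 29, where 19.8% of all members were larger and 3.67% smaller. Of 53 nucleolar proteins 1 had a larger and 5 a smaller step, against 6.01% and 2.32% of all members. After scaling the counts were 1 and 8, against 4.28% and 4.63%. By voom they were 3 and 0, against 6.52% and 0.886%, so the smaller steps were not called by each method. Without that library they were 7 and 5, against 19.8% and 3.67%. The median steps of these lists were 3.69 and 3.39 in ref6c, against 3.82 and 3.46 in Col.

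The letters read by the zinc fingers of REF6, CTCTGTTT, CTCTGTTC, CTCTGCTT or CTCTGCTC, were looked for within 250 bases before the gene start on both strands. They were in 5.40% of promoters of genes with a smaller step than in Col, in 5.04% of those with a larger step and in 5.37% of all 15131. All 3 shares lie close together, and the window leaves out gene bodies.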

How the data were processed

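RNA of imbibed ref6c and Col seeds was sequenced by the submitters, and per the submitters' processing notes fastp 0.20.1, HISAT2 2.1.10 and the build TAIR10 were used; the counting program and strand setting are not given in the sources used here. The deposited values are TPM from the authors, scaled by them to the same total in every library; TPM times the gene span gave whole reads, within 0.001 reads, for 99.97% of 462321 values above 0, so introns count as length. Ranks and shares set between genes are on that scale.

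From these, log2(TPM + 1) was fitted with limma 3.58.1 (R 4.3.3; lmFit, eBayes with intensity trend) as 8 group means over 24 libraries, with 16 residual degrees of freedom. Contrasts were the ref6c step, the Col step and their difference, with Benjamini-Hochberg adjustment over 15275 members and a threshold of 0.05. The fit was tested on simulated data in which only a small set of genes changed between the times. Those data held no shift of the whole pool, so the test does not bear on that shift or on the scaling. The log2(TPM + 1) scale understates fold changes of low genes.

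Alternatives were another pseudocount, filters, scalings, groups, a replicate block, voom on recovered reads and leaving out each library. Symbols, gene starts and promoters came from the RefSeq annotation of TAIR10.1. Genes named by rule were REF6, ELF6, the 15 largest rises and falls with a symbol, a mean of 5 TPM and no overlap between times, the 10 largest differences each way, 4 per list by adjusted p and the 5 highest levels. Other named genes, and the promoters printed, were chosen after their values were seen. The members and the 46 lists were chosen with earlier results of these data known, and a few loci were reassigned or removed from lists after values were seen, where symbol or product had matched a wrong gene. BGL2, TT2 and LAT52 were not matched and not used here.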

Additional observations from a re-analysis of the deposited data

Results flagged for a closer look

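The difference of the 0 h to 6 h step between ref6c and Col, tested as an interaction by limma, singled out 20 genes with a symbol, 10 each way, out of 918 positive and 354 negative calls among 15275 members. Values are log2 differences, ref6c minus Col.

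Above Col stood IGMT4 at 4.92, IGMT2 at 3.46, GSTU12 at 3.46, HSP21 at 2.87, PEN3 at 2.84, IGMT3 at 2.76, DIN2 at 2.73, CYP71B3 at 2.595, BCB at 2.59 and GSTF6 at 2.57. In HSP21, CYP71B3 and GSTF6 the 6 h libraries of ref6c were not above those of Col, and the 0 h libraries of ref6c were below those of Col.

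Below Col stood CYP71B2 at -2.63, EXPA2 at -2.13, LCR39 at -2.10, ABCB4 at -2.04, TOM7-2 at -2.03, PRMT1A at -1.88, EXPA10 at -1.81, EXPA1 at -1.72, LP1 at -1.71 and EXPA15 at -1.69. In 9 of these 10 the 6 h libraries of ref6c were all below those of Col; LCR39 differed at 0 h.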

How the results depend on the processing

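The count of members higher at 6 h stayed between 9663 and 14547 under every alternative but median-of-ratios scaling, which gave 6817. The count of lower members was 6541 after scaling, 2350 by voom and 709 with a 2-fold minimum. Leaving out 1 library gave 12817 to 13044 higher and 1392 to 1487 lower.

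The difference from Col was less stable. Without 0 h library 1 of ref6c 3026 members were more positive and 561 more negative; over all libraries left out in turn the ranges were 631 to 3026 and 273 to 561. A 2-fold minimum gave 180 and 60. More negative calls numbered 210 with a pseudocount of 0.1, 599 without a filter, 204 at 5 TPM, 535 with the filter over 24 libraries, 707 after scaling, 134 by voom and 130 among genes with a mean of 1 TPM or more at both times, an alternative added after seeing the data. The replicate numbers did not pair the samples: deviations of same-numbered ref6c libraries correlated at 0.064, 0.196 and -0.0896, and of Col libraries at -0.124, -0.0271 and -0.21. With the number as a replicate block 12872 members were higher, 1417 lower, 538 more positive and 202 more negative.

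Of 46 lists 41 held more members called higher than lower, and after scaling 23; list medians turned sign for small heat shock proteins (-1.46), heat shock factors (-0.84), ABA synthesis (-1.29), ABA catabolism (-1.12), ABA receptors and phosphatases (-1.04), ABA kinases (-0.29), dormancy (-0.28), jasmonate (-1.04), beta-oxidation (-0.15), raffinose (-0.26), aquaporins (-0.72), hypoxia (-0.87), clock (-0.18), glutathione S-transferases (-0.31), Polycomb-repressed regulators (-1.04), core histones (-0.71) and chloroplast genes (-0.45). The small heat shock median was -0.32 at 5 TPM and in both-times genes and -0.37 by voom; ABA synthesis was -0.0014 and ABA catabolism -0.58 by voom; GA inactivation was 0.026 without a filter.

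Single steps that turned sign after scaling were CRA1 (-1.36), CYP707A2 (-0.11), CYP71B3 (-0.040), CYP88A3 (-0.023), ELF6 (-0.59), GA2 (-1.47, and -0.39 by voom), JMJD5 (-0.77) and PRR7 (-0.18). Differences that turned sign were DGR2 (0.25 by voom), EXPA10 (0.12 by voom), REF6 (0.23 with a pseudocount of 0.1, 0.47 by voom) and TOM7-2 (0.14 with that pseudocount). The cause of these changes was not tested.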
